A study of Homo sapiens with 9 samples.

Results

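The 36 genes described here form the transcriptional arm of the integrated stress response that is built around the transcription factor ATF4. They were chosen by name from the 78986 genes listed in the deposited count table of stable HEK293T lines expressing WT, G245S or R273H p53. By role, 11 are regulators and feedback genes of the response, 6 are enzymes of serine and one-carbon metabolism, 6 are other enzymes of amino acid metabolism, 4 are amino acid transporters, 6 are aminoacyl-tRNA synthetases with the tRNA exporter XPOT, and 3 are endoplasmic reticulum (ER), secreted or surface proteins. Of the 36, 35 passed the filter on low counts and were tested. None of the 35 passed an adjusted p of 0.05 in either mutant against WT p53 or between the mutants, where 4, 2 and 3 members had an unadjusted p under 0.05, beside 6.66%, 6.11% and 4.75% of all genes tested. The 95% interval of every tested member lay within a 2-fold change either way in all 3 comparisons, beside 86.0%, 87.5% and 92.3% of all genes tested.

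In the integrated stress response, stress-sensing kinases phosphorylate the translation factor eIF2, which lowers protein synthesis in general and raises translation of the ATF4 mRNA. ATF4 then pairs with C/EBP proteins on composite DNA elements and turns on genes for amino acid synthesis, amino acid uptake and tRNA charging, and, when stress lasts, the CHOP branch encoded by DDIT3. Because ATF4 itself is set largely at the level of translation, the RNA of its targets is the usual RNA readout of the response. The response can be started by ER stress, amino acid shortage, viral double-stranded RNA, haem shortage or failing mitochondria.

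The WT group (genotype label wt p53 overexpression), the G245S group (G245S p53 overexpression) and the R273H group (R273H p53 overexpression) had 3 libraries each, labelled as biological triplicates. The labels name the cells HEK 293 and their culture HEK293T, a human embryonic kidney line that carries the SV40 large T antigen, which binds p53. In every group, controls included, the p53 came from a lentivirus, was expressed on top of the p53 of the cells and was kept under puromycin selection. The methods describe selection of transduced cells and name no cloning step, and a line without added p53 was not analysed here. G245S and R273H are hotspot substitutions of the DNA-binding domain, the first usually classed as a structural and the second as a DNA-contact mutant.

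The 8 libraries tested held between 7325514 and 9667306 counts. WT replicate 3 held 1486315 and was left out of the tests for its depth, so WT values are those of 2 libraries unless it is named. The paper also left out a WT replicate, for poor quality and low reads, and does not name it. Log2 levels of replicates correlated across genes with Pearson's r between 0.988 and 0.991, and with 0.950 and 0.957 for the pairs with WT replicate 3. As a check on the labels of WT against mutant, 12 of 12 canonical p53 target genes were lower by sign in both mutant lines, with medians of −0.82 and −0.81 on the log2 scale. Of all genes tested, 50.8% and 50.7% were higher by sign. The adjusted threshold was passed by 9 of the 12 in G245S and 8 in R273H, against 0.126% and 0.137% of all genes. Between the mutants 0 of the 12 passed, so these genes do not check the 2 mutant labels against each other. Of markers of the line, KRT18 was at 58.5 to 68.5 CPM (counts scaled by TMM to the library total), NEFM at 125 to 192, KRT8 at 9.61 to 12.0, LHX1 at 5.26 to 9.94 and PAX2 at 2.17 to 4.85 in the 8 libraries. In WT replicate 3, KRT8 at 54.6 CPM, KRT18 at 160.3 and LHX1 at 11.9 lay above these ranges, and NEFM and PAX2 within them. Values of that library below are therefore descriptive only. Of markers of other cell types, CD3E was at 0 in every library and PTPRC, HBB and ALB were below 1 CPM in the 8 libraries, but COL1A1 was at 12.6 to 36.7. In bulk RNA, fewer expressing cells and less RNA per cell cannot be told apart.

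Before the values, the DNA element that defines ATF4 targets is shown, since the genes were grouped by name and not by sequence. The core of the C/EBP-ATF response element was searched as the 8 letters TGATGNAA on both strands of RefSeq promoter windows of the GRCh38 genome, which run from 250 bases before to 50 bases after a gene's start. A window was found for 30 of the 36 genes, and 7 of these (23.3%) held the core, against 3.62% of all 35116 windows. For a member only the first window listed under its symbol was searched, whereas the share over all windows counts every window. A start here is that of the window. For ATF3, CHAC1, ASNS, SLC3A2, NARS1 and AARS1 it lay inside the span of the gene in the deposited table. For HERPUD1 it was the gene's start there. The stricter form TGATGCAA, which is included in the first search, was in 4 of the 30 (13.3%) and in 0.870% of all windows. The 7 sequences are given 5′ to 3′ on the strand of the gene, with the core, or its reverse complement, in capitals.
ATF3, chr1:212565206-212565233, plus strand: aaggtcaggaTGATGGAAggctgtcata
CHAC1, chr15:40953252-40953279, plus strand: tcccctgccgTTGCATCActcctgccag
ASNS, chr7:97872459-97872486, minus strand: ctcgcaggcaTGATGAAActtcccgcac
SLC3A2, chr11:62881726-62881748, plus strand: gcaggactccTTACATCAgctcc
NARS1, chr18:57621805-57621832, minus strand: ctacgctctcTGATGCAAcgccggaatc
AARS1, chr16:70289676-70289703, minus strand: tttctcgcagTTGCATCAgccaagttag
HERPUD1, chr16:56931956-56931983, plus strand: acgcggcgggTTGCATCAgcccgtgccc
The cores began 191 bases before the start for ATF3, 209 for CHAC1, 68 for ASNS, 187 for AARS1 and 176 for HERPUD1, counted to the first base of the core on the strand shown, and at positions 38 and 15, counted from 1 at the start, for SLC3A2 and NARS1. A match is a description of the letters only, and no match in a window says nothing of elements elsewhere, such as introns. Of the 4 members with an unadjusted p under 0.05 in G245S below, SLC3A2 held the core, and the windows of STC2, PCK2 and SLC1A5 did not.

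Across all members, differences between the 3 lines centred near 0. The median log2 fold change of the 35 tested members was 0.04 in G245S and −0.002 in R273H against WT, and −0.03 in R273H against G245S, beside medians over all genes tested of 0.003, 0.002 and −0.005. No member passed the adjusted threshold in G245S, in which 0.126% of the 15893 genes tested passed, in R273H, in which 0.137% of 16022 passed, or between the mutants, where 0% of 15614 passed. At an unadjusted p under 0.05, 4 of the 35 members were higher and 0 lower in G245S. Of the 15893 genes tested there, 533 were higher and 525 lower at that level (6.66% in either direction). In R273H, 1 member was higher and 1 lower, beside 446 and 533 of 16022 genes (6.11% in either direction). Between the mutants 0 members were higher and 3 lower in R273H, beside 357 and 384 of 15614 genes (4.75% in either direction).

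**Figure D1:**
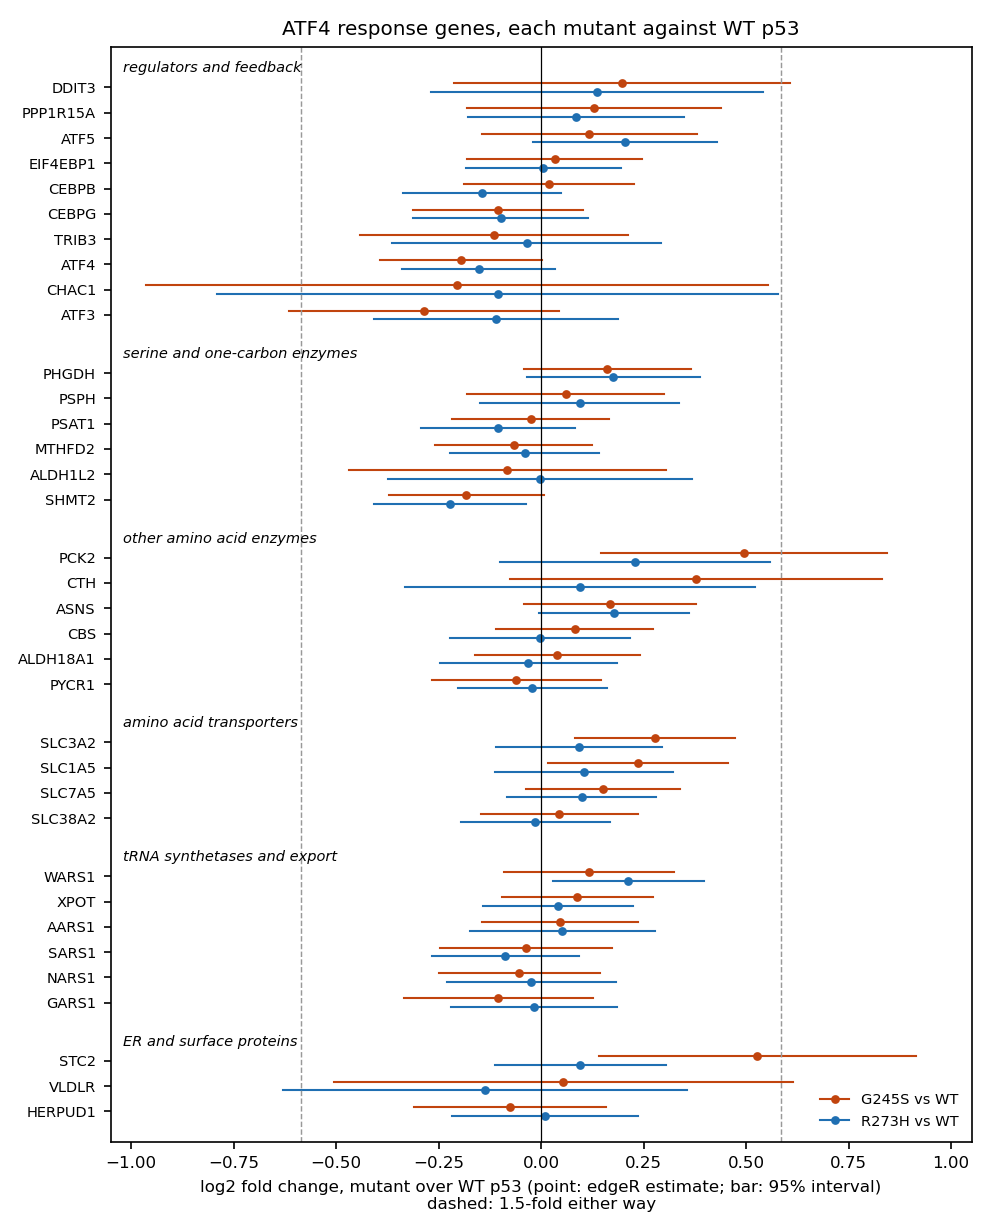
Log2 fold change of each of the 35 tested genes in G245S (orange) and R273H (blue) against WT p53, by role group, with points for edgeR's estimates and bars for 95% intervals; the dashed lines mark 1.5-fold. In G245S the bars of PCK2, SLC3A2, SLC1A5 and STC2 lie above 0, and in R273H that of WARS1 lies above 0 and that of SHMT2 below it, while none of these genes passed the adjusted threshold.

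Counted by overlap of the libraries, 7 members were above both WT libraries in all 3 G245S libraries, where 11.3% of all genes were, and 3 were below them, where 10.7% were. In R273H the counts were 5 above, with a background of 10.3%, and 4 below, with 10.5%. Between the mutants 0 members were higher in all R273H libraries, with a background of 4.65%, and 1, CEBPB, was lower, with 4.37%. The 7 of 35 above WT in G245S, the count furthest over its background, were SLC3A2, SLC7A5, SLC1A5, PHGDH, ASNS, PCK2 and XPOT. The precision was enough to bound the changes. The 95% interval lay within 1.5-fold either way for 28 of 35 members in G245S (80.0%, against 65.6% of all genes tested), for 33 in R273H (94.3%, against 67.0%) and for 31 between the mutants (88.6%, against 73.7%).

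By level, divided by the length of the counted exons, EIF4EBP1 had the highest value in WT at 221 CPM per kilobase, followed by ATF4 at 132, SLC1A5 at 113 and PSAT1 at 83.3. On that scale the lowest tested member was VLDLR at 0.267 CPM per kilobase, and CHAC1 was at 1.04. This order depends on the lengths, which were 880 bases for EIF4EBP1 and 16507 for VLDLR. Without the division SLC1A5 was highest at 382 CPM, with ATF4 at 344 and EIF4EBP1 at 194, and CHAC1 was lowest at 2.12, below VLDLR at 4.41. The classical stress reporters TRIB3 and DDIT3 were at 10.4 and 6.42 CPM in WT, or 2.81 and 4.91 CPM per kilobase. In the 8 libraries the 4 transporters rested on 532 to 4142 counts each, TRIB3 on 78 to 87, DDIT3 on 49 to 79, VLDLR on 27 to 51 and CHAC1 on 11 to 21. The intervals of the last pair were the widest in both mutants.

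Among the regulators, ATF4 (ENSG00000128272; GRCh38 chromosome 22, 39519695 to 39522686), the factor that gives the response its name, was lower in both mutants without passing the test. It was at 342 and 346.5 CPM in WT, at 285, 318 and 295 in G245S and at 316, 307 and 305 in R273H. All 6 mutant libraries were below both WT libraries, and WT replicate 3, at 337 CPM, was also above all 6. The group levels were 344 ± 3.12 CPM (SD, n = 2) in WT, 299 ± 16.9 (SD, n = 3) in G245S and 309 ± 5.86 (SD, n = 3) in R273H. Against WT, ATF4 differed by −0.19 on the log2 scale in G245S (95% interval −0.39 to 0.003, edgeR's adjusted p = 0.754) and by −0.15 in R273H (−0.34 to 0.03, edgeR's adjusted p = 0.915).

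DDIT3 (ENSG00000175197; chromosome 12, 57516588 to 57521737), which encodes the pro-apoptotic factor CHOP, was low in all lines. It was at 6.18 and 6.65 CPM in WT, at 8.02, 7.83 and 6.01 in G245S and at 6.43, 8.44 and 6.39 in R273H. The groups overlapped, with log2 fold changes of 0.20 (95% interval −0.21 to 0.61) and 0.14 (−0.27 to 0.54), and both changed sign, to −0.13 and −0.18, when WT replicates 2 and 3 stood for WT. ATF3 (ENSG00000162772; chromosome 1, 212565334 to 212620777), a repressor and activator induced by many stresses, was at 15.0 and 12.9 CPM in WT, at 9.64, 12.3 and 12.5 in G245S and at 11.6, 13.3 and 14.0 in R273H. All 3 G245S libraries lay below WT, by −0.29 on the log2 scale (edgeR's adjusted p = 0.784), whereas R273H overlapped it.

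TRIB3 (ENSG00000101255; chromosome 20, 362835 to 397559), a pseudokinase that feeds back on ATF4 and CHOP, was at 9.73 and 11.1 CPM in WT, at 8.83, 10.0 and 9.93 in G245S and at 9.41, 11.4 and 9.705 in R273H. CHAC1 (ENSG00000128965; chromosome 15, 40952962 to 40956512), which degrades glutathione and is induced through ATF4 and CHOP, was at 1.95 and 2.30 CPM in WT, at 1.52, 1.41 and 2.58 in G245S and at 1.72, 2.45 and 1.77 in R273H. Both overlapped between all groups. The interval of CHAC1 in G245S, −0.96 to 0.55 on the log2 scale, was the widest of any member, so that its change was the least closely bounded at this depth.

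CEBPB (ENSG00000172216; chromosome 20, 50190734 to 50192690), a C/EBP partner of ATF4, was at 48.3 and 45.0 CPM in WT, at 50.9, 45.4 and 44.8 in G245S and at 42.2, 41.1 and 43.2 in R273H. All R273H libraries were below every library of the other groups, WT replicate 3 at 41.3 CPM excepted. The log2 fold change was −0.14 against WT (edgeR's adjusted p = 0.93) and −0.17 against G245S (edgeR's adjusted p = 0.994). Of the other 4 regulators tested, ATF5, a relative of ATF4, was above the 2 WT libraries tested in all R273H libraries (0.20) and PPP1R15A, the GADD34 subunit that reverses eIF2 phosphorylation, likewise (0.09). WT replicate 3, at 30.8 CPM for ATF5 and 24.5 for PPP1R15A, was above all R273H libraries in both genes. CEBPG, the usual dimer partner of ATF4, and EIF4EBP1, the translation repressor 4E-BP1, overlapped WT in both mutants, with changes between −0.10 and 0.03. The median of the 10 tested regulators was −0.04 in G245S and −0.07 in R273H.

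The 11th regulator, NUPR1 (ENSG00000176046; chromosome 16, 28532708 to 28539008), a small stress-induced chromatin protein, did not pass the filter. Its counts were 6 and 4 in WT, 9, 9 and 14 in G245S and 6, 6 and 6 in R273H. These correspond to 0.687 and 0.512, to 0.914, 1.15 and 1.72 and to 0.689, 0.817 and 0.710 CPM. The G245S libraries were the 3 highest of the 8, on counts too few for a test.

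**Figure D2:**
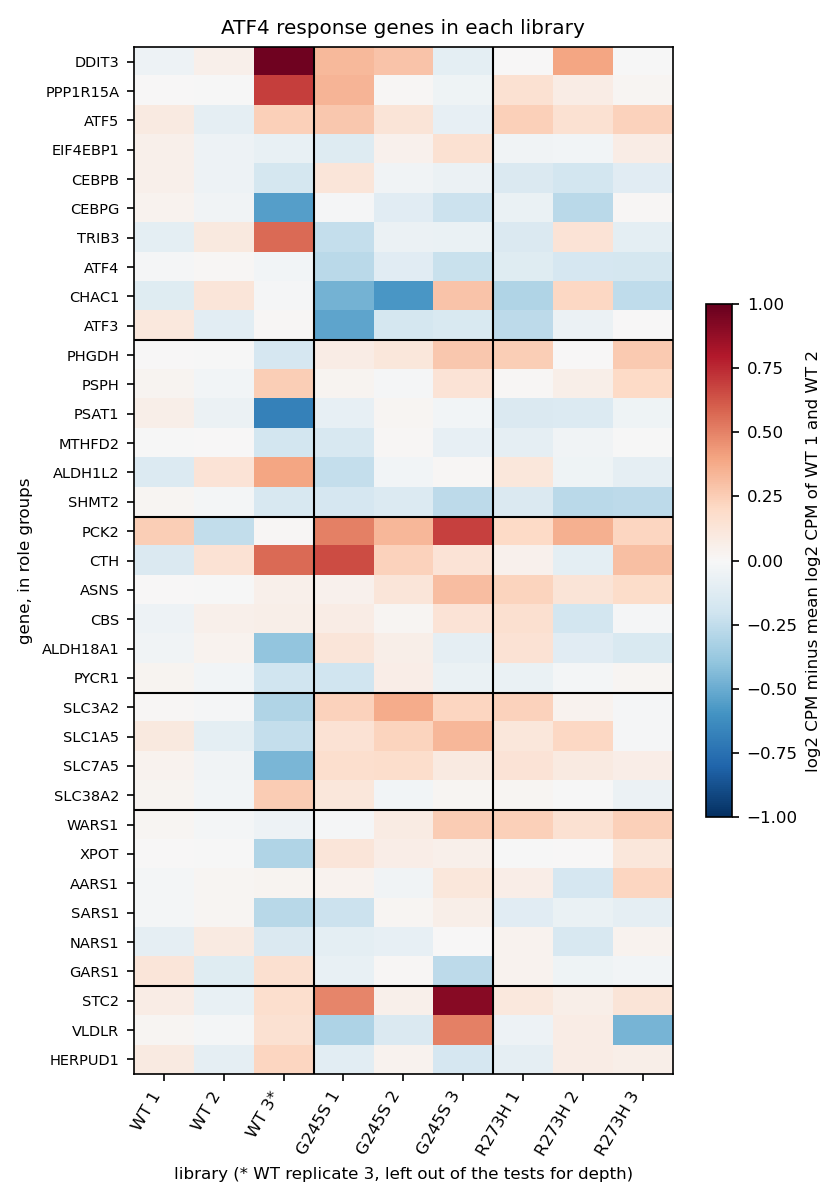
Log2 CPM of the 35 tested genes in each of the 9 libraries, minus the mean of WT replicates 1 and 2, with genes in role groups and colour for the difference (red higher, blue lower). Most cells are pale, STC2 in G245S replicate 3 is dark red, and WT replicate 3, which the tests leave out, has more strongly coloured cells than the other WT libraries.

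The serine and one-carbon enzymes make serine from a glycolytic intermediate and pass its carbon to folate. The group had medians of −0.05 in G245S and −0.02 in R273H, with PHGDH at its upper and SHMT2 at its lower end. PHGDH (ENSG00000092621; chromosome 1, 119648411 to 119744218), the first enzyme of serine synthesis, was at 237 and 235 CPM in WT, at 248, 255 and 285 in G245S and at 279.5, 236 and 283 in R273H. All G245S libraries were above WT, and R273H replicate 2 lay between the WT libraries. The log2 fold changes were 0.16 and 0.18 (edgeR's adjusted p = 0.797 and 0.915).

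SHMT2 (ENSG00000182199; chromosome 12, 57229573 to 57234935), the mitochondrial enzyme that splits serine into glycine and a one-carbon unit, was at 154 and 149 CPM in WT, at 135, 138 and 126 in G245S and at 137, 126 and 127 in R273H. All 6 mutant libraries were below both WT libraries. WT replicate 3, at 136 CPM, lay among the mutant libraries. The log2 fold change was −0.18 in G245S (95% interval −0.37 to 0.006, edgeR's adjusted p = 0.757) and −0.22 in R273H (−0.41 to −0.04, unadjusted p = 0.0217, edgeR's adjusted p = 0.74). PSAT1 and PSPH, which complete serine synthesis, MTHFD2, which acts next to SHMT2 in mitochondrial folate metabolism, and ALDH1L2 overlapped WT in both mutants, with changes between −0.11 and 0.09.

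Among the other amino acid enzymes, ASNS (ENSG00000070669; chromosome 7, 97851677 to 97872542), asparagine synthetase and a classical ATF4 target, was at 65.9 and 65.3 CPM in WT, at 67.5, 71.3 and 81.4 in G245S and at 76.4, 71.6 and 74.3 in R273H. All 6 mutant libraries were above both WT libraries, although WT replicate 3, at 67.9 CPM, was above G245S replicate 1. The log2 fold changes were 0.17 (95% interval −0.04 to 0.38, edgeR's adjusted p = 0.797) and 0.18 (−0.005 to 0.36, edgeR's adjusted p = 0.835).

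PCK2 (ENSG00000100889; chromosome 14, 24094053 to 24110598), the mitochondrial phosphoenolpyruvate carboxykinase, was at 14.0 and 9.98 CPM in WT, at 16.7, 14.9 and 19.0 in G245S and at 13.5, 15.1 and 13.7 in R273H. The 3 G245S libraries were above both WT libraries, which themselves had 122 and 78 counts. The log2 fold change in G245S was 0.50 (standard error 0.163, unadjusted p = 0.00884, edgeR's adjusted p = 0.587), and R273H was lower than G245S by −0.27 (unadjusted p = 0.0435, edgeR's adjusted p = 0.994). Single WT libraries moved the PCK2 values: without WT replicate 2 they were 0.28 in G245S and 0.01 in R273H, and without WT replicate 1 they were 0.77 and 0.50, where R273H had 0.23 with both. CTH, which makes cysteine from cystathionine, had 0.38 in G245S with overlapping groups. ALDH18A1, PYCR1 and CBS, of proline and cystathionine synthesis, overlapped WT in both mutants, with changes between −0.06 and 0.08. By sign, 5 of the 6 enzymes were higher in G245S and 3 of 6 in R273H.

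The amino acid transporters had the highest median of the role groups in G245S, 0.19, with 4 of 4 above 0 by sign and 3 of 4 without overlap with WT (11.3% of all genes), but 0 of 4 past the adjusted threshold. SLC3A2 (ENSG00000168003; chromosome 11, 62856004 to 62888880), the CD98 heavy chain that carries several exchangers to the membrane, was at 151 and 148 CPM in WT, at 175, 193 and 173 in G245S and at 176, 154 and 148 in R273H. G245S was above WT in every library, and R273H overlapped both groups. The levels were 149.6 ± 1.63 CPM (SD, n = 2) in WT, 181 ± 10.8 (SD, n = 3) in G245S and 159 ± 14.4 (SD, n = 3) in R273H.

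SLC3A2 had the smallest p of any member, with a log2 fold change of 0.28 in G245S (95% interval 0.08 to 0.47, unadjusted p = 0.00848, edgeR's adjusted p = 0.587) and 0.09 in R273H (edgeR's adjusted p = 0.98). SLC1A5 (ENSG00000105281; chromosome 19, 46774883 to 46788594), the glutamine exchanger ASCT2, was at 408 and 356 CPM in WT, at 420.4, 444 and 480 in G245S and at 413, 439.6 and 379 in R273H. G245S was again above WT in every library, by 0.24 on the log2 scale (unadjusted p = 0.0375, edgeR's adjusted p = 0.725), and by 0.14 without WT replicate 2. SLC7A5, the LAT1 light chain that SLC3A2 partners, was above WT without overlap in both mutants (0.15 and 0.10), and SLC38A2, the neutral amino acid carrier SNAT2, overlapped it (0.04 and −0.01).

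**Figure D3:**
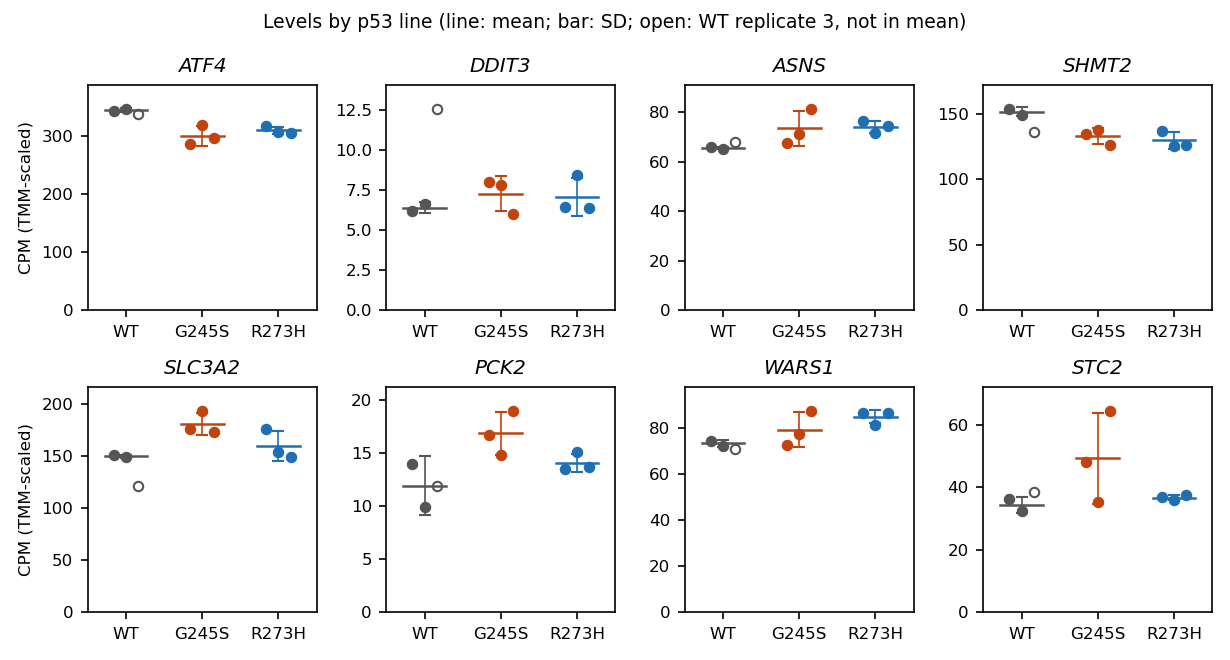
Levels in CPM of 8 genes in each library, by p53 line, with a horizontal line for the mean, a bar for the SD and an open circle for WT replicate 3, which is not in the mean. ATF4 and SHMT2 lie lower in the mutant lines, SLC3A2 and PCK2 are highest in G245S, STC2 spreads from 35.4 to 64.4 CPM within G245S, and DDIT3 is highest in WT replicate 3.

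The tRNA synthetases load amino acids onto tRNAs, and XPOT exports tRNAs from the nucleus. Medians were 0.004 in G245S and 0.01 in R273H, with 3 of 6 genes above 0 in each. WARS1 (ENSG00000140105; chromosome 14, 100333790 to 100376805), the tryptophan enzyme, was at 74.4 and 72.3 CPM in WT, at 72.7, 77.6 and 87.4 in G245S and at 86.6, 81.5 and 86.5 in R273H. R273H was above WT in every library, and G245S overlapped both. The log2 fold change in R273H was 0.21 (95% interval 0.03 to 0.40, unadjusted p = 0.0256, edgeR's adjusted p = 0.755).

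SARS1 (ENSG00000031698; chromosome 1, 109213918 to 109238182), the serine enzyme, was at 138 and 143 CPM in WT, at 121, 142 and 146 in G245S and at 130.1, 134 and 132 in R273H. R273H lay below both WT libraries (−0.09, edgeR's adjusted p = 0.972), a sign that changed to 0.03 with WT replicates 1 and 3. XPOT was above WT in all G245S libraries by 0.09, and GARS1, NARS1 and AARS1 overlapped WT in both mutants. In 15 cytosolic synthetases outside the list the medians were −0.05 and −0.04, and in 17 mitochondrial synthetases 0.03 and 0.03, with 0 genes of either list past the adjusted threshold in any comparison. The smallest p-values there were those of IARS1 between the mutants (−0.18, unadjusted p = 0.0267) and RARS2 in R273H against WT (0.24, unadjusted p = 0.0324).

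Of the ER and surface proteins, STC2 (ENSG00000113739; chromosome 5, 173314723 to 173328447), a secreted glycoprotein induced by ER stress and by hypoxia, had the largest fold change of any member. It was at 36.2 and 32.5 CPM in WT, at 48.0, 35.4 and 64.4 in G245S and at 36.8, 35.8 and 37.4 in R273H. G245S replicates 1 and 3 were above every other library, while G245S replicate 2 lay between the WT libraries and WT replicate 3 was at 38.5 CPM. The level in G245S was 49.3 ± 14.5 CPM (SD, n = 3), against 34.3 ± 2.59 (SD, n = 2) in WT and 36.7 ± 0.812 (SD, n = 3) in R273H.

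Against WT, STC2 in G245S differed by 0.53 on the log2 scale (95% interval 0.14 to 0.91, unadjusted p = 0.011, edgeR's adjusted p = 0.604), and R273H differed from G245S by −0.43 (−0.75 to −0.11, unadjusted p = 0.0114, edgeR's adjusted p = 0.948). Its value rested on single libraries. Without G245S replicate 3 the change in G245S was 0.29 (edgeR's adjusted p = 0.873), and without G245S replicate 2 it was 0.71 and passed (edgeR's adjusted p = 0.0207). The difference between the mutants was −0.20 without G245S replicate 3 and −0.62 without G245S replicate 2, and neither passed. With no filter on low counts it passed in G245S (0.53, edgeR's adjusted p = 0.00151) and between the mutants (−0.45, edgeR's adjusted p = 0.00316), whereas DESeq2 gave an adjusted p of 1.00 in both.

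G245S replicate 3, the highest library in STC2, was also the highest in 10 of the 35 members (28.6%, against 12.3% of all genes). WT replicate 2 was the lowest in 10 of the 35 (28.6%, against 13.8% of all genes), among them PHGDH, ASNS, PCK2, SLC7A5, SLC1A5, XPOT and STC2, of which the first 6 are among the 7 genes above WT in every G245S library. A list of 12 hypoxia-induced genes, chosen after the values had been seen, had its highest level in G245S replicate 3, with a median of 0.44 over the 11 tested genes relative to WT replicates 1 and 2 on the log2 scale, where the other 5 mutant libraries were between −0.18 and −0.13. In that library BNIP3, a mitophagy receptor, was at 143 CPM against 60.4 to 89.0 in the other 7 libraries tested, and SLC2A1, the glucose transporter GLUT1, was at 96.5 against 44.7 to 57.8. PDK1, EGLN3, PFKFB3, KDM3A and P4HA1 were also highest there, whereas ADM, NDRG1, ANKRD37 and PFKFB4 were higher in another library. ADM was at 8.22 CPM there and at 9.87 in R273H replicate 1, and NDRG1 was at 42.7 there and at 47.4 in WT replicate 1. The part of this in the values of STC2 was not tested. VLDLR, a lipoprotein receptor induced under ER stress, was likewise highest there, at 6.25 CPM against 3.195 to 4.63. HERPUD1 (ENSG00000051108; chromosome 16, 56932142 to 56944864), an ER membrane protein of ER-associated degradation, was at 31.4 and 27.8 CPM in WT, at 27.4, 30.3 and 26.2 in G245S and at 27.8, 31.0 and 30.7 in R273H, with overlapping groups and changes of −0.08 and 0.01.

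Lists around the programme had medians near 0 as well. Of 16 genes that act on or upstream of eIF2 (its kinases and their activators, its subunits, its exchange factor and the phosphatase subunit PPP1R15B), 0 passed the adjusted threshold, with medians of −0.01 in G245S and −0.02 in R273H; the smallest p in R273H was that of EIF2B1, a subunit of the exchange factor (0.22, unadjusted p = 0.0209), and in G245S that of EIF2B3 (unadjusted p = 0.0696). Of 10 other ATF4 targets, 9 were tested and 0 passed, with medians of −0.04 and −0.05, and SLC7A11, the cystine importer, had the smallest p in both mutants (0.0513 and 0.0902, unadjusted). Of 16 ER chaperones and folding genes, which ATF6 and XBP1 control, 0 passed, with medians of −0.09 and −0.04, and SEL1L had the smallest p in G245S (−0.26, unadjusted p = 0.046).

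SESN2, GDF15, TNFRSF10B, DDIT4 and GADD45A are known to be under the control of both ATF4 and p53. Of these 5, 4 were lower by sign in each mutant, with medians of −0.23 in G245S and −0.31 in R273H, while 0 passed the adjusted threshold. GADD45A, a growth arrest gene, was at 19.3 and 23.2 CPM in WT, at 15.7, 13.9 and 17.5 in G245S and at 15.5, 11.8 and 13.4 in R273H, below the 2 WT libraries tested in all 6, although WT replicate 3, at 16.8 CPM, was below G245S replicate 3. Its log2 fold changes were −0.42 (unadjusted p = 0.00763, edgeR's adjusted p = 0.586) and −0.63 (unadjusted p = 0.000403, edgeR's adjusted p = 0.158). TNFRSF10B, the death receptor DR5, was at 22.6 and 24.7 CPM in WT, at 18.5, 16.04 and 18.6 in G245S and at 19.6, 20.0 and 17.5 in R273H, again below the 2 WT libraries tested in all 6 (−0.40 and −0.31, edgeR's adjusted p = 0.526 and 0.727). WT replicate 3, at 18.9 CPM, was below R273H replicates 1 and 2. Over the 5 genes the median level of WT replicate 3, relative to WT replicates 1 and 2 on the log2 scale, was −0.30, within the range of the 6 mutant libraries, −0.51 to −0.25. DDIT4, an inhibitor of mTORC1 signalling that hypoxia also induces, was at 79.2 and 68.1 CPM in WT, at 70.5, 51.3 and 113 in G245S and at 49.9, 53.1 and 61.0 in R273H, with its highest value in G245S replicate 3. In R273H it lay below the 2 WT libraries tested (−0.43, unadjusted p = 0.000869, edgeR's adjusted p = 0.24), and G245S overlapped WT (0.09). WT replicate 3, at 59.5 CPM, was below R273H replicate 3.

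**Figure D4:**
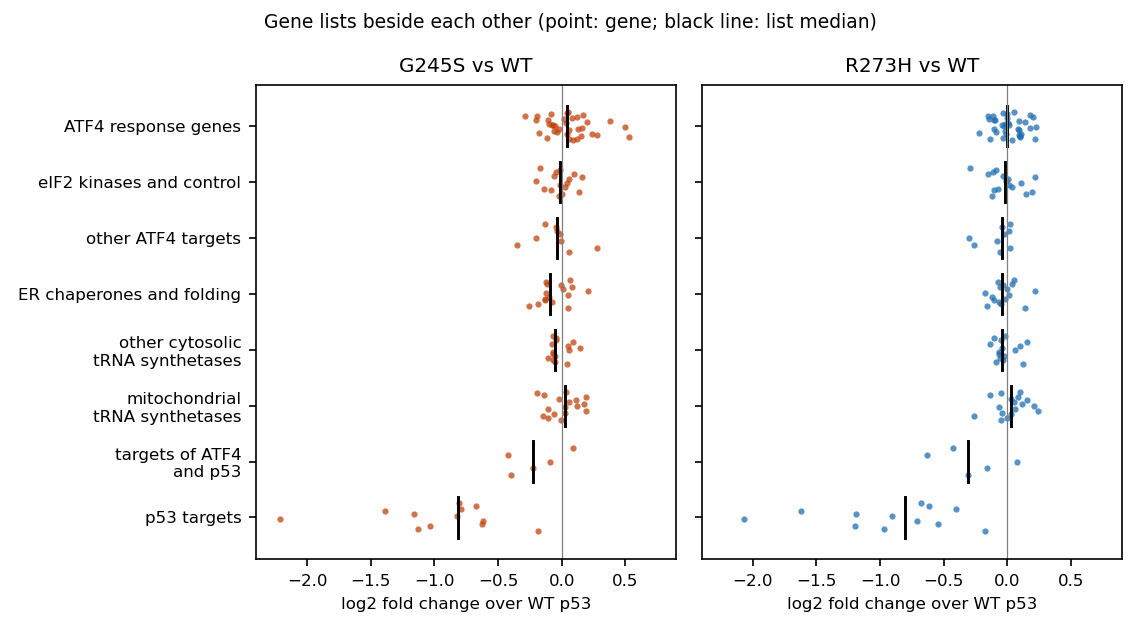
Log2 fold changes over WT p53 of the ATF4 response genes beside 7 other gene lists, in G245S (left) and R273H (right), with a point for each tested gene and a black line for each list's median. The p53 targets lie to the left, with medians of −0.82 and −0.81, the 5 targets of ATF4 and p53 have medians of −0.23 and −0.31, and the medians of the other lists lie within 0.1 of 0.

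The mutants were each compared with the same 2 WT libraries, so their changes are not independent. In the direct comparison, which does not use WT, the 3 members with an unadjusted p under 0.05 were STC2 (−0.43), SLC3A2 (−0.19) and PCK2 (−0.27), all lower in R273H, with edgeR's adjusted p between 0.948 and 0.994. The 4 transporters were lower by sign in R273H, with a median of −0.10, and none differed without overlap. The intervals bound what could have been missed: for ATF4 the difference lay between −0.12 and 0.20, for DDIT3 between −0.43 and 0.31, for ASNS between −0.17 and 0.19 and for TRIB3 between −0.21 and 0.37.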

How the data were processed

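RNA-seq of 9 libraries of stable HEK293T lines was used, 3 for each of WT, G245S and R273H p53. Per the methods and the submitters' processing notes, the authors filtered reads with FastP 0.24.0, aligned them to GRCh38 with STAR 2.7.11, removed duplicates by molecular identifier and counted strand-specifically with featureCounts (Subread 2.1.1), sharing multi-mapping reads as fractions. The deposited values used are therefore estimated counts, without normalization; the 9 columns of CPM that the authors deposited beside them were not used.

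Estimated counts were rounded to whole numbers. WT replicate 3 was left out here on depth alone, with a limit of 4096044 counts (0.5 of the median over the remaining 8). The paper gives poor quality as well as low reads for the WT replicate it excluded. Genes were filtered with filterByExpr, scaled with TMM and tested by quasi-likelihood in edgeR 4.0.16 (R 4.3.3), and p-values were adjusted by Benjamini-Hochberg over every gene tested, with 0.05 as the threshold. CPM are TMM-scaled, and intervals are 95%. P-values measure the spread between replicates of 1 line per genotype. DESeq2 1.42.0 was an alternative. The fits were tested on simulated data first. Intervals for WT replicate 3 are exact Poisson intervals and cover counting error only.

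The members and the other lists were chosen with earlier results of these data known. Values in every library tested are given for ATF4, DDIT3, ATF3, TRIB3, CHAC1 and ASNS, for any member past the threshold and for the 2 members with the smallest unadjusted p over the 3 comparisons in each role group. Of the other lists, they are given for GADD45A, TNFRSF10B and DDIT4 only. Other genes named there for a small p have a fold change or a p-value, and the p53 targets have counts and medians alone. The hypoxia list, NUPR1, TNFRSF10B and DDIT4 were added after their values were seen. Promoter sequences are from RefSeq. Gene coordinates are those of the deposited table, and all 36 genes were found in GENCODE of the same build. Alternatives covered the WT libraries, each replicate left out, scaling, filters, 1 fit of all groups, a replicate block and a minimum fold of 1.2.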

Additional observations from a re-analysis of the deposited data

Results flagged for a closer look

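NUPR1 stood out in WT replicate 3, the library the comparisons leave out for its depth. It had 18 counts there, 12.6 CPM (exact Poisson interval 7.47 to 19.9, counting error only), against 0.512 to 1.72 CPM in the 8 libraries tested. It was the 1 member of 36 (2.78%) whose interval in that library lay above the range of the 8, where 4.73% of all genes did, and 6 members (16.7%) lay below, where 4.14% did, namely PHGDH, PSAT1, SLC3A2, SLC7A5, SLC1A5 and XPOT. Of other stress genes, DDIT3 was at 12.6 CPM there (6.01 to 8.44 in the 8 libraries), TRIB3 at 15.4 (8.83 to 11.4), PPP1R15A at 24.5 (14.7 to 19.2) and HERPUD1 at 34.3 (26.2 to 31.4), each highest in that library with an interval that reached into the range of the others. GDF15 was at 6.30 CPM there against 0.770 to 2.04. Of the line's markers, KRT8 was at 54.6 CPM there against 9.61 to 12.0 in the 8 libraries and KRT18 at 160.3 against 58.5 to 68.5, and ALB, a liver marker, was at 2.80 CPM, close to the floor of 3 counts in that library, while CD3E and HBB were at 0. The part of these differences in the NUPR1 value was not tested.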

How the results depend on the processing

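No member passed the adjusted threshold in R273H against WT in any of the 16 alternatives run. STC2 was the single exception in the other comparisons: 1 member passed in G245S without G245S replicate 2 (range 0 to 1 over replicates left out) and with no filter on low counts, and 1 between the mutants with no filter. The members' median log2 fold change, 0.0447 in G245S, was 0.0221 with WT replicates 1 and 3, 0.0183 with a replicate block and 0.0155 to 0.0778 with a replicate left out. In R273H, −0.0020, it was 0.0304 with WT replicates 2 and 3 and 0.0207 with library-size scaling, under which the median of all genes was 0.0256. Between the mutants, −0.0289, it was −0.0032 with library-size scaling, where that of all genes was 0.0206, −0.0499 with no filter and −0.0249 to 0.0006 with a replicate left out. Causes of these shifts were not tested.

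Of the named members' values under alternatives, 689 kept their sign and their side of the threshold, 3, all of STC2, newly passed, and 41 had the other sign, none of them past the threshold. With all 3 WT libraries these were SARS1 in G245S (0.0234) and, in R273H, DDIT3 (−0.0258) and HERPUD1 (−0.0257). With WT replicates 1 and 3 they were DDIT3 (−0.0702) and SARS1 (0.0819) in G245S and DDIT3 (−0.1215), STC2 (−0.0074), HERPUD1 (−0.1128) and SARS1 (0.0294) in R273H. With WT replicates 2 and 3 they were DDIT3 (−0.1336) and SARS1 (0.0520) in G245S and DDIT3 (−0.1806) and SARS1 (0.0031) in R273H. With replicates left out, the ranges that crossed 0 were −0.1624 to 0.0212 for HERPUD1, −0.0489 to 0.0768 for CEBPB and −0.0915 to 0.0383 for SARS1 in G245S, −0.2120 to 0.0056 for ATF3, −0.1315 to 0.0591 for TRIB3, −0.2711 to 0.0120 for CHAC1 and −0.0748 to 0.1043 for HERPUD1 in R273H, and, between the mutants, −0.1988 to 0.0244 for DDIT3, −0.0703 to 0.4037 for CHAC1, −0.0467 to 0.0887 for ASNS, −0.0298 to 0.0903 for PHGDH, −0.1285 to 0.0006 for SARS1 and −0.0084 to 0.1337 for TRIB3. ASNS between the mutants was −0.0053 with no filter. Where a single WT library was left, it was assumed to vary like the other groups.

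Nothing in the labels says that replicate numbers pair the libraries. Deviations from group means correlated between −0.138 and 0.268 over 7 pairs of same-numbered libraries, and between −0.259 and 0.184 over 14 other pairs. The 2 WT libraries deviate from their own mean by opposite amounts, so these ranges cannot decide whether the libraries are paired. With a replicate block, HERPUD1 in R273H was −0.0094, and the genes past the threshold went from 20 to 76 in G245S, from 22 to 47 in R273H and from 0 to 59 between the mutants, with 0 members among them. With no filter on low counts they were 144, 93 and 125, with WT replicates 1 and 3 they were 3 and 4 against WT, and with WT replicates 2 and 3 they were 16 and 13. In G245S they were 10 with all 3 WT libraries, 13 without WT replicate 2, 10 without G245S replicate 3 and 9 with a minimum fold of 1.2. Depth limits CHAC1 and NUPR1 most.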
